A study of Mus musculus with 6 samples.

Results

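Tubulin isotype genes were followed in mouse kidney after unilateral nephrectomy, the removal of 1 kidney. The set holds 10 genes of 24346 in the files, picked by symbol with earlier results of these data known. These are the alpha-tubulin genes Tuba1a, Tuba1b, Tuba1c and Tuba4a, the beta-tubulin genes Tubb2a, Tubb2b, Tubb4b, Tubb5 and Tubb6, and the gamma-tubulin gene Tubg1. The 3 D-serine samples came from nephrectomised mice that drank water with 0.1% D-serine, and the 3 vehicle samples from nephrectomised mice whose water held none. All 6 shared a serine-free diet of 1 week before surgery and were collected 2 days after it. D-serine, the mirror image of L-serine, acts as a co-agonist of NMDA-type glutamate receptors. The sources used here give no strain, sex or age and do not say whether a sample is 1 mouse, so the p-values rest on the spread among these samples, which may be technical. All 10 kidney epithelium markers that were looked up, such as Lrp2 of the proximal tubule and Umod of the thick ascending limb, were above 0 in the files.

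Alpha- and beta-tubulin pair into heterodimers that polymerise into microtubules, and gamma-tubulin seeds that growth at centrosomes. In tubule epithelium microtubules carry vesicles between the apical and basal sides, form the core of the primary cilium, and build the spindle when a cell divides. Mammals make each class from several genes, the isotypes, whose products differ mostly in an acidic tail at the carboxyl end, where enzymes add and remove glutamate, glycine and tyrosine. Cells also tune tubulin by autoregulation: free tubulin triggers decay of tubulin mRNA during its translation.

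The coding ends that encode these tails are shown for the Tubb2 pair as an example of near-identical copies. Each is the last 75 coding bases with the stop codon, from GENCODE M21 transcripts on GRCm38 (mm10). Capitals mark bases that differ from the other copy, after alignment of the whole coding sequence.
Tubb2a, against Tubb2b: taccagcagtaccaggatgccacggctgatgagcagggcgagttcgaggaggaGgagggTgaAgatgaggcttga
Tubb2b, against Tubb2a: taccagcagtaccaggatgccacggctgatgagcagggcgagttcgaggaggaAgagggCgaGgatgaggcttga

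Tubb2a and Tubb2b differed at 3 of these 75 bases, each a change that leaves the encoded residue the same. Over the whole coding sequence Tuba1a and Tuba1b were 98.3% identical, Tuba1b and Tuba1c 97.9%, and Tubb2a and Tubb2b 96.5%, against 85.1% for Tuba4a and Tuba1b and 82.2% for Tubb4b and Tubb5. Of all windows of 50 bases in the Tuba1a, Tuba1b and Tuba1c transcripts, 72.9%, 73.8% and 61.0% also occurred in a transcript of another gene. That share was 49.6% for Tubb2a, 39.3% for Tubb2b, 50.9% for Tubb4b (mostly its pseudogene Tubb4b-ps1) and 14.1% for Tubg1. It was 1.11% for Tuba4a, 0.115% for Tubb5 and 0 for Tubb6. Values of the Tuba1 trio, the Tubb2 pair and Tubb4b are therefore uncertain as single genes, since the sources used here do not say how shared reads were split between copies.

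The members lie on 7 chromosomes (GENCODE M21 on mm10). Tuba1b (98931425 to 98934565, minus strand), Tuba1a (98949837 to 98953703, minus strand) and Tuba1c (99029891 to 99038110, plus strand) stand together on chromosome 15. Tubb2a (34074274 to 34078007) and Tubb2b (34126748 to 34130466) are neighbours on the minus strand of chromosome 13. Tuba4a lies on chromosome 1 (75214228 to 75219865), Tubb4b on chromosome 2 (25222160 to 25224702) and Tubb5 on chromosome 17 (35833921 to 35838306), all on the minus strand. Tubb6 lies on chromosome 18 (67390717 to 67402749) and Tubg1 on chromosome 11 (101119938 to 101126419), both on the plus strand. Each alpha and beta gene has 4 exons in its main transcript, and Tubg1 has 11. Tuba4a shares 1379 exon bases with Stk16 on the other strand, and Tubb4b shares 121 with Fam166a. On the same strand, where no strand setting separates reads, Tuba1a and Tuba1b share 473 and 426 exon bases with the annotated gene Gm49450. Tuba1b also shares 87 with the antisense gene Gm41396. Neither Gm49450 nor Gm41396 had values in the files. The overlap with Gm49450 can also count among the shared windows given above. The sources used here do not give the strand setting used to assign reads, so Tuba4a and Stk16 reads may not have been told apart. Stk16 averaged 34.4 ± 4.498 FPKM with D-serine and 38.1 ± 4.25 FPKM with vehicle (SD, n = 3 each).

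All 10 tubulin genes were higher on average in the D-serine kidneys, by a median log2 difference of 0.43, where the median over all 11737 tested genes was -0.0078 and 48.9% of genes were higher. Tubb5 and Tuba1b stood furthest apart, at 2.42 and 2.15 times the vehicle mean, and Tuba4a least, at 1.19 times. None of the 10 passed limma at an adjusted p of 0.05 over all genes tested (adjusted p from 0.079 to 0.45), where 0.0767% of all genes passed (0.00852% higher and 0.0682% lower). At an unadjusted p under 0.05 there were 5 members, all higher, beside 13.1% of all genes called higher at that level. The D-serine libraries did not overlap the vehicle libraries for 6 members, all higher, beside 16.5% of all genes. No test of the set was made, since its members were chosen with earlier results of these data known. Every member passed the filter of a mean of 1 FPKM (fragments per kilobase of transcript, scaled to the mapped fragments of the library), and the lowest value of any member in any library was 2.90 FPKM.

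**Figure D1:**
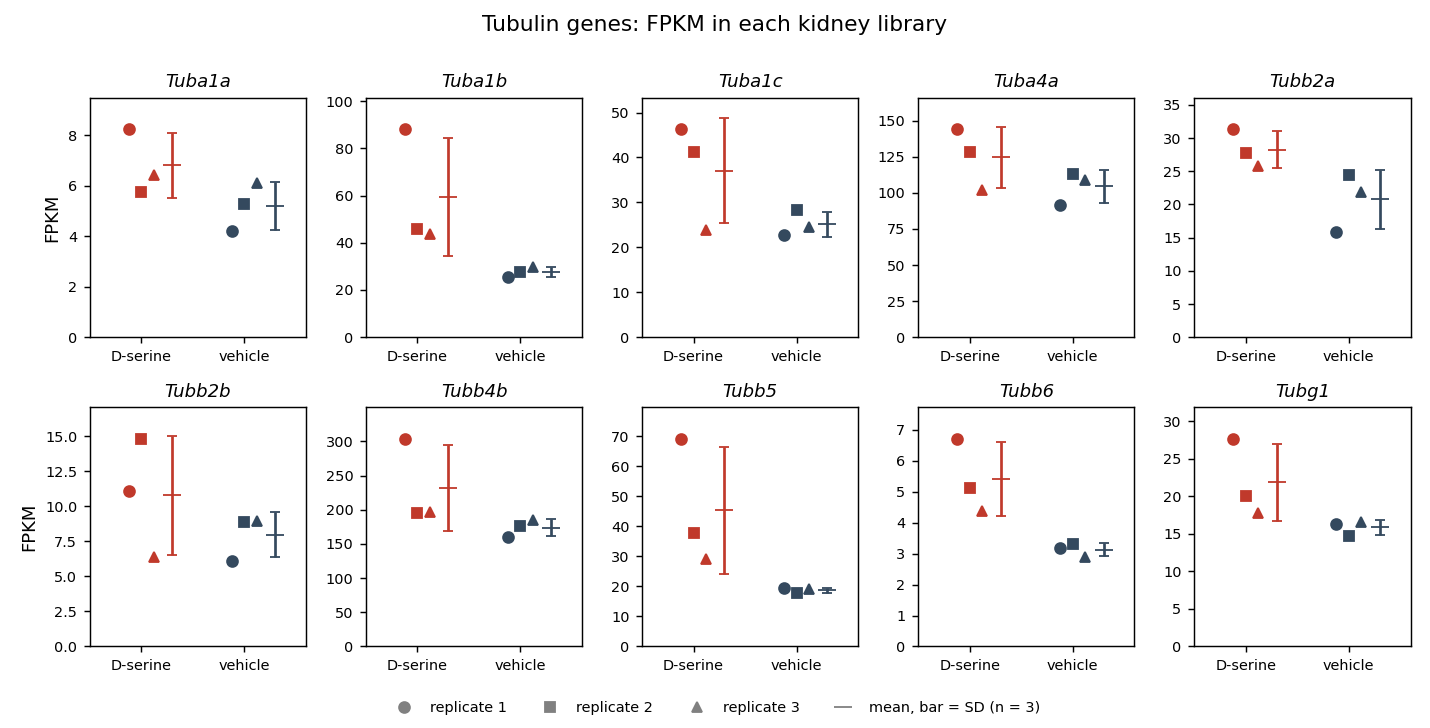
FPKM of the 10 tubulin genes in each library, with D-serine left and vehicle right. Symbols are replicates, and the bar beside them is the mean ± SD (n = 3). Replicate 1 is the highest D-serine library for 9 of the 10 genes, and the groups do not overlap for Tuba1b, Tubb2a, Tubb4b, Tubb5, Tubb6 and Tubg1.

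Among the beta genes, Tubb4b was by far the most abundant; its product is found in many tissues and in cilia. It stood at 304, 195 and 197 FPKM in D-serine replicates 1 to 3, against 161, 176 and 185 FPKM in vehicle replicates 1 to 3. The groups did not overlap, but D-serine replicates 2 and 3 lay just above the highest vehicle library (log2 difference 0.38 ± 0.18 SE, limma adjusted p = 0.21). Without D-serine replicate 1 the difference of Tubb4b was 0.17.

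Tubb5, the beta-tubulin gene that most dividing cells express, stood at 69.2, 37.8 and 29.0 FPKM with D-serine, against 19.4, 17.8 and 19.02 FPKM with vehicle. Each D-serine library was above every vehicle library, and the vehicle libraries lay close together. The difference was 1.14 ± 0.28 (log2, SE, limma adjusted p = 0.080), and 0.79 without D-serine replicate 1. Tubb6, a minor beta isotype, stood at 6.72, 5.11 and 4.38 FPKM with D-serine, against 3.17, 3.32 and 2.90 FPKM with vehicle. Its groups were apart too (0.62 ± 0.15, adjusted p = 0.079), and it kept a difference of 0.47 without D-serine replicate 1. Tubb6 was the scarcest member, with roughly 38 to 88 fragments per library. Tubb5 and Tubb6 are the beta genes with the fewest windows of 50 bases shared with other transcripts.

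The Tubb2 genes are best known from neurons. Tubb2a stood at 31.3, 27.7 and 25.8 FPKM with D-serine, against 15.9, 24.5 and 21.9 FPKM with vehicle. The D-serine libraries were all higher, though replicate 3 was close to vehicle replicate 2 (0.44 ± 0.16, limma adjusted p = 0.14). Tubb2b stood at 11.1, 14.8 and 6.37 FPKM with D-serine, against 6.12, 8.87 and 8.97 FPKM with vehicle, so that its groups overlapped (0.34 ± 0.28, adjusted p = 0.45). Tubb2b was the only member whose highest library was not D-serine replicate 1, and without D-serine replicate 2 its difference was 0.091. Summed before the fit, an alternative chosen after seeing the data, the pair gave a log2 difference of 0.44 ± 0.18 (adjusted p = 0.17).

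Among the alpha genes, Tuba1b, the broadly expressed alpha isotype of dividing cells, stood at 88.0, 46.0 and 43.7 FPKM with D-serine, against 25.5, 27.5 and 29.9 FPKM with vehicle. All D-serine libraries were above every vehicle library (log2 difference 1.0 ± 0.25 SE, limma adjusted p = 0.082), and the difference was 0.68 without D-serine replicate 1. Tuba1c stood at 46.3, 41.2 and 23.8 FPKM with D-serine, against 22.7, 28.2 and 24.5 FPKM with vehicle. D-serine replicate 3 of Tuba1c lay among the vehicle libraries (0.49 ± 0.24, adjusted p = 0.21). Tuba1a, the main alpha isotype of developing neurons, stood at 8.23, 5.77 and 6.42 FPKM with D-serine, against 4.21, 5.30 and 6.11 FPKM with vehicle, with groups that overlapped (0.33 ± 0.16, adjusted p = 0.23). The sum of the 3 Tuba1 genes, which depends less on how reads were split among them than each gene does, was 143, 93.0 and 73.9 FPKM with D-serine, against 52.4, 61.0 and 60.6 FPKM with vehicle. As 1 row of the fit, an alternative chosen after seeing the data, it differed by 0.77 ± 0.22 (adjusted p = 0.098).

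Tuba4a, whose product lacks the terminal tyrosine that most other alpha-tubulins are made with, was the most abundant alpha gene. It stood at 144, 128 and 102 FPKM with D-serine, against 91.6, 113 and 109 FPKM with vehicle. D-serine replicate 3 was below 2 of the 3 vehicle libraries, and the difference of 0.24 ± 0.15 (log2, SE, limma adjusted p = 0.31) was the smallest of the 10 with all libraries in. Tubg1, which encodes the gamma-tubulin of the nucleating ring complex, stood at 27.7, 20.1 and 17.8 FPKM with D-serine, against 16.3, 14.7 and 16.6 FPKM with vehicle. Its groups did not overlap (0.42 ± 0.16, adjusted p = 0.15), and the difference was 0.24 without D-serine replicate 1.

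**Figure D2:**
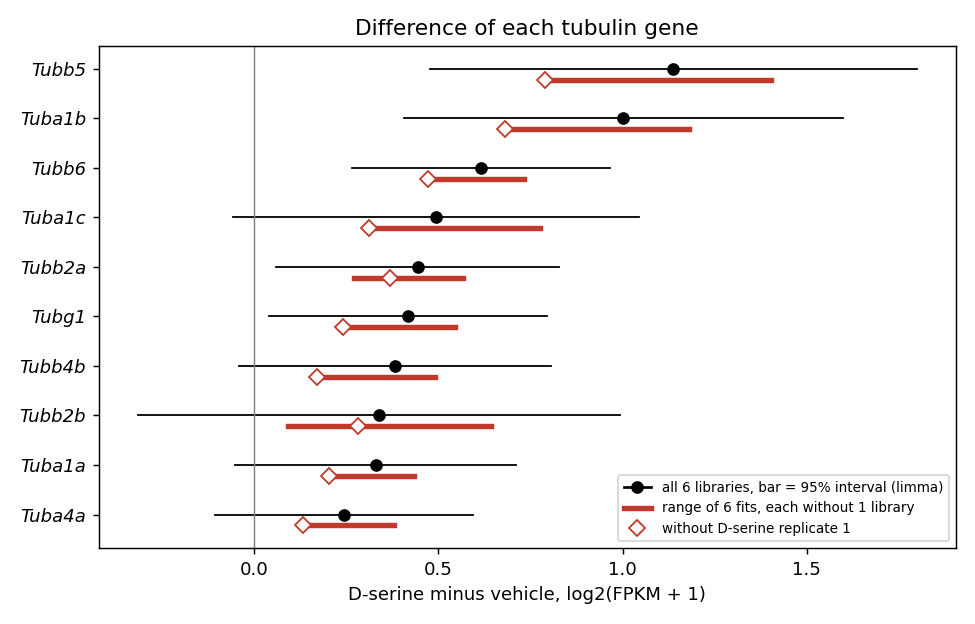
Log2(FPKM + 1) difference of D-serine minus vehicle for each tubulin gene, with the limma 95% interval in black. The red bar spans the 6 fits that leave out 1 library each, and the diamond is the fit without D-serine replicate 1. Every point is above 0, and the intervals of Tubb5, Tuba1b, Tubb6, Tubb2a and Tubg1 lie wholly above 0.

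D-serine replicate 1 was the highest library for 9 of 10 members, and vehicle replicate 1 the lowest for 7. Without D-serine replicate 1 all 10 members were still higher, their median was 0.30, and 6 did not overlap, beside 21.7% of all genes on that count. The difference was then 0.13 for Tuba4a, 0.17 for Tubb4b, 0.20 for Tuba1a, 0.24 for Tubg1 and 0.31 for Tuba1c, each less by over 1.5 times. Of these, Tubb4b and Tubg1 are among the 6 that did not overlap. Without vehicle replicate 1 the difference was 0.15 for Tuba4a, 0.21 for Tuba1a, 0.27 for Tubb2a and 0.18 for Tubb2b. The members' median was then 0.38, with 6 members apart beside 19.1% of all genes. Without D-serine replicate 3, Tuba1c (0.78, limma adjusted p = 0.046) and Tubb5 (1.40, adjusted p = 0.047) passed, and 3.72% of all genes passed with them.

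The summed levels of both classes were higher with D-serine. The alpha sum was 287, 221 and 176 FPKM with D-serine, against 144, 174 and 169 FPKM with vehicle, and the beta sum was 422, 280 and 262 FPKM with D-serine, against 205, 230 and 238 FPKM with vehicle. The ratio of beta to alpha was 1.41 ± 0.124 with D-serine and 1.38 ± 0.0548 with vehicle (SD, n = 3 each, two-sided exact permutation p = 0.7). Both sums were higher in all D-serine libraries than in any vehicle library (exact permutation p = 0.1 for each, the smallest that 3 against 3 can give).

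Within the alpha sum, Tuba1b held 30.7%, 20.8% and 24.8% in the D-serine libraries, against 17.7%, 15.8% and 17.7% in the vehicle libraries. Tuba4a held 50.3%, 57.9% and 58.01% with D-serine, against 63.6%, 65.0% and 64.2% with vehicle. The groups did not overlap for either isotype, and the mean difference was 8.41 percentage points for Tuba1b and -8.87 for Tuba4a. Without D-serine replicate 1 it was 5.78 for Tuba1b and -6.31 for Tuba4a. How reads were split among the Tuba1 genes also bears on the share of each of them. Tuba1c and Tuba1a had overlapping shares, at 16.1% and 3.04% on average with D-serine and 15.5% and 3.19% with vehicle.

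Within the beta sum, Tubb5 held 16.4%, 13.5% and 11.1% with D-serine, against 9.46%, 7.71% and 7.99% with vehicle. Tubb4b held 71.97%, 69.5% and 75% with D-serine, against 78.3%, 76.4% and 77.8% with vehicle. The mean difference was 5.26 percentage points for Tubb5 and -5.34 for Tubb4b, again with no overlap. Tubb6 held 1.69% on average with D-serine and 1.40% with vehicle, also apart, while the shares of Tubb2a and Tubb2b overlapped. The 5 shares that did not overlap reached the smallest p of the exact permutation test, 0.1, and an adjusted p of 0.18 over the 9 shares tested. Shares of 1 sum are not independent of each other. Those of Tubb4b and the Tubb2 pair also depend on how shared reads were split between copies.

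**Figure D3:**
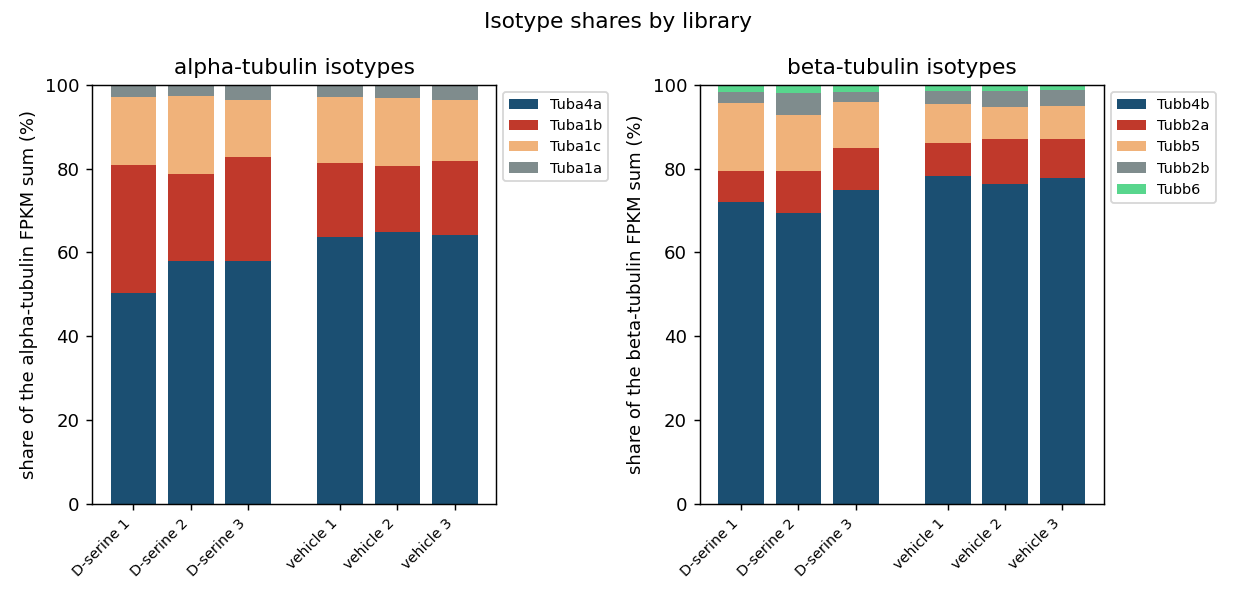
Share of each isotype in the summed FPKM of the 4 alpha genes (left) and the 5 beta genes (right), 1 bar per library, D-serine bars left of vehicle bars. Tuba1b takes 20.8 to 30.7% of the alpha sum with D-serine and 15.8 to 17.7% with vehicle, and Tubb5 takes 11.1 to 16.4% of the beta sum with D-serine and 7.71 to 9.46% with vehicle. Shares of near-identical copies depend on how shared reads were split.

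Of the other tubulin genes, 10 of the 11 listed were in the files and most were near 0. Tubd1, encoding the delta-tubulin of centrioles, was the 1 that could be tested, at 5.19, 3.35 and 3.18 FPKM with D-serine, against 1.34, 1.83 and 2.89 FPKM with vehicle. Its groups did not overlap (log2 difference 0.71 ± 0.23 SE, limma adjusted p = 0.12). Tuba8 lay under the filter, at 0.581, 0.724 and 0.882 FPKM with D-serine, against 0.260, 0.272 and 0.0959 FPKM with vehicle. The neuronal beta gene Tubb3 was listed at 0 in 5 of 6 libraries, and Tuba3b and Tubal3 in all 6.

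All 8 subunits of the CCT chaperonin, the ring that folds newly made tubulin and actin, had lower means in the D-serine kidneys (median log2 difference -0.19). None passed at an adjusted p of 0.05, while 3 had an unadjusted p under 0.05 and were lower, beside 14.6% of all genes. The groups did not overlap for 5 of the 8, all lower, beside 19.4% of all genes. Cct6a averaged 85.7 ± 6.70 FPKM with D-serine and 107 ± 8.85 FPKM with vehicle (adjusted p = 0.12). Cct5 averaged 77.9 ± 11.3 FPKM with D-serine and 102 ± 14.2 FPKM with vehicle, and Tcp1, the first subunit described, 58.8 ± 8.83 FPKM with D-serine and 73.4 ± 4.10 FPKM with vehicle (SD, n = 3 each). Without D-serine replicate 2, 7 of the 8 were lower and the median was -0.092.

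Prefoldin, which hands nascent tubulin to CCT, and the cofactors that then assemble the heterodimer had 11 of 13 tested genes higher, beside 48.9% of all genes. Pfdn4, counted among the 11, differed by 0.0001 on the log2 scale. None was called by limma, and 4 were higher and 1 lower at an unadjusted p under 0.05, beside 13.1% and 14.6% of all genes. The prefoldin subunit Pfdn6 averaged 161 ± 37.5 FPKM with D-serine and 96.95 ± 1.154 FPKM with vehicle (adjusted p = 0.072). Pfdn5 averaged 486 ± 61.6 FPKM with D-serine and 359 ± 18.8 FPKM with vehicle. Tbcel, a cofactor E-like protein that destabilises tubulin, was lower, at 14.9 ± 1.40 FPKM with D-serine and 18.7 ± 0.259 FPKM with vehicle.

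Partners of gamma-tubulin, namely ring complex subunits, their recruiters and the augmin complex (HAUS), which branches spindle microtubules, had 12 of 19 genes higher and a median log2 difference of 0.16. None passed, while 6 were higher and 1 lower at an unadjusted p under 0.05, beside 13.1% and 14.6% of all genes. The 3 with the smallest p were augmin subunits. Haus7 averaged 16.7 ± 2.94 FPKM with D-serine and 9.29 ± 0.828 FPKM with vehicle (limma adjusted p = 0.061). Haus4 averaged 11.8 ± 3.80 FPKM with D-serine and 5.07 ± 0.766 FPKM with vehicle, and Haus8 4.72 ± 1.41 FPKM with D-serine and 1.95 ± 0.613 FPKM with vehicle. The median of the list was 0.066 without D-serine replicate 1.

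Among proteins that take microtubules apart, the stathmins, depolymerising kinesins and severing enzymes, 7 of 16 genes passed the filter and 4 were higher, Kif2c among them. Stmn1, stathmin, which binds free tubulin dimers, stood at 320, 126 and 136 FPKM with D-serine, against 43.3, 46.8 and 53.7 FPKM with vehicle. All D-serine libraries were above all vehicle libraries (log2 difference 1.86 ± 0.33 SE, limma adjusted p = 0.058). Kif2c, the mitotic depolymerising kinesin, which passed the filter only through its D-serine values, so that no test is given, averaged 3.12 ± 3.03 FPKM with D-serine and 0.358 ± 0.0954 FPKM with vehicle. Katna1, a subunit of the severing enzyme katanin, averaged 13.3 ± 2.59 FPKM with D-serine and 16.4 ± 1.90 FPKM with vehicle, with groups that overlapped.

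Proteins that stabilise microtubules or track their growing ends had 8 of 15 tested genes higher and a median of 0.0042, or -0.076 without D-serine replicate 1. Clip1, a plus-end tracking protein, averaged 6.996 ± 0.503 FPKM with D-serine and 8.90 ± 0.427 FPKM with vehicle (limma adjusted p = 0.11). Mapt, encoding tau, averaged 40.3 ± 1.37 FPKM with D-serine and 47.9 ± 2.15 FPKM with vehicle (adjusted p = 0.13). Clasp2, which anchors plus ends, averaged 4.83 ± 0.516 FPKM with D-serine and 3.96 ± 0.345 FPKM with vehicle.

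Enzymes that modify tubulin had 7 of 15 tested genes higher and a median of -0.0090. Agbl5, a carboxypeptidase that removes branch-point glutamates, averaged 7.86 ± 0.630 FPKM with D-serine and 6.30 ± 0.696 FPKM with vehicle (limma adjusted p = 0.16). Hdac6, the tubulin deacetylase, averaged 31.4 ± 3.86 FPKM with D-serine and 26.3 ± 0.957 FPKM with vehicle, and Ttll4, a glutamylase, 3.20 ± 0.510 FPKM with D-serine and 3.89 ± 0.354 FPKM with vehicle. Of the 4 autoregulation genes, known for this role in human cells, Ttc5, which recognises nascent tubulin, stood at 18.04, 20.4 and 16.0 FPKM with D-serine, against 14.6, 13.8 and 14.1 FPKM with vehicle (log2 difference 0.33 ± 0.11, adjusted p = 0.12). Its groups did not overlap. Scaper averaged 1.73 ± 0.216 FPKM with D-serine and 1.97 ± 0.0280 FPKM with vehicle, and Cnot1, the scaffold of the deadenylase complex, 8.24 ± 1.47 FPKM with D-serine and 10.3 ± 1.74 FPKM with vehicle.

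**Figure D4:**
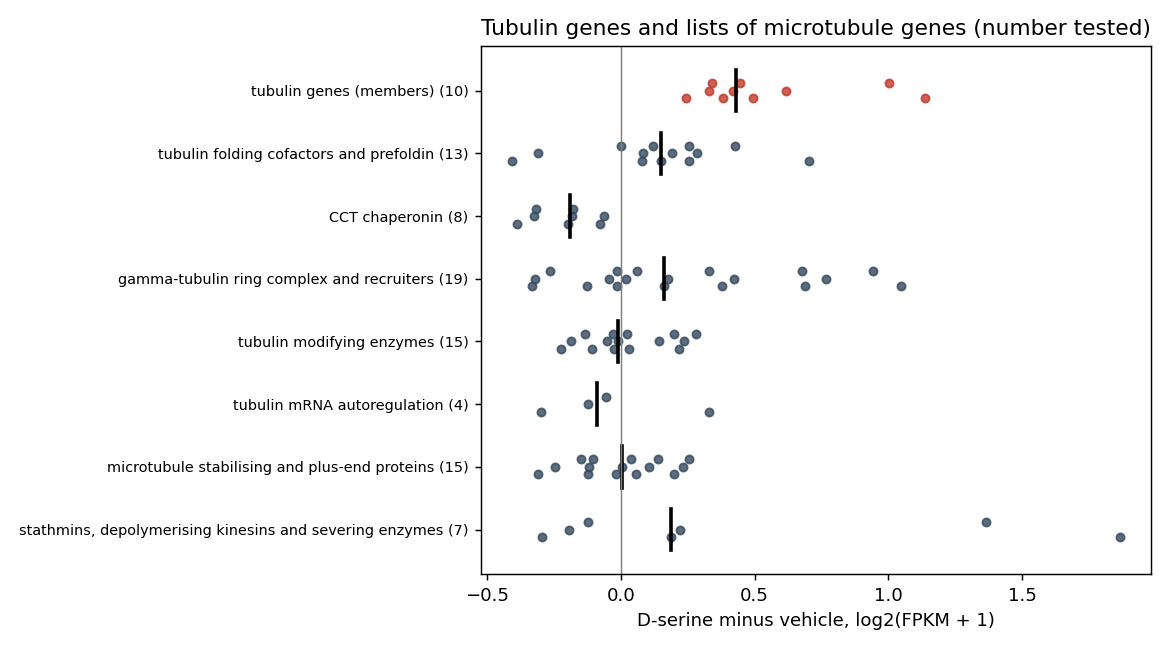
Log2(FPKM + 1) difference of D-serine minus vehicle for the tubulin genes and for each tested gene of 7 lists of microtubule genes, with the number tested in brackets and the median as a black line. All 10 tubulin genes lie right of 0 and all 8 CCT genes left of it, and Stmn1 is the rightmost point of the last row.

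Markers of several cell types differed between the same groups, and in whole-kidney RNA more cells of a type and more RNA per cell cannot be told apart. Cell division markers were higher for 12 of 12 genes, beside 48.9% of all genes. Their summed level was 106 to 374 FPKM in D-serine libraries and 19.03 to 30.5 FPKM in vehicle libraries. Aurkb and Tpx2, 2 of the 12, passed the filter only through their D-serine values. The 374 FPKM belonged to D-serine replicate 1, and D-serine replicates 2 and 3 stood at 124 and 106 FPKM. Mki67, the proliferation antigen, stood at 13.5, 4.09 and 4.29 FPKM with D-serine, against 0.966, 0.945 and 1.24 FPKM with vehicle, and Top2a, the topoisomerase of replicating cells, at 10.98, 3.56 and 2.52 FPKM with D-serine, against 1.25, 0.997 and 1.148 FPKM with vehicle.

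Collecting duct markers were higher for 11 of 11 genes, beside 48.9% of all genes. Their summed level was 754 to 1045 FPKM with D-serine and 562 to 719 FPKM with vehicle. The groups did not overlap for 7 of the 11, all higher, beside 16.5% of all genes. Tubular injury markers were higher for 6 of 6 tested of 10 listed (812 to 1116 FPKM with D-serine and 626 to 725 FPKM with vehicle). Spp1, Clu and Krt8 made up most of that sum, and averaged 350, 221 and 101 FPKM with vehicle. Krt19, 1 of the 6 tested injury markers, passed the filter only through its D-serine values. Among the 4 injury markers under the filter, Havcr1 averaged 0.145 FPKM with D-serine and 0.329 FPKM with vehicle, and Cdh6 0.103 FPKM with D-serine and 0.183 FPKM with vehicle. Sox9 averaged 0.217 FPKM with D-serine and 0.218 FPKM with vehicle. Vcam1 was higher with D-serine, at 0.765 FPKM against 0.583 FPKM with vehicle. Fibroblast, pericyte and smooth muscle markers were higher for 8 of 9 tested (41.6 to 77.5 FPKM with D-serine and 27.4 to 38.4 FPKM with vehicle), with Col1a1 and Col3a1 tested only through their D-serine values, and the summed ranges of endothelial markers (38.7 to 57.0 FPKM with D-serine and 24.4 to 46.4 FPKM with vehicle) and leukocyte markers (9.27 to 16.6 FPKM with D-serine and 8.62 to 13.6 FPKM with vehicle) overlapped. Proximal tubule markers were lower for 9 of 10 (3458 to 3936 FPKM with D-serine and 4259 to 4653 FPKM with vehicle). Their groups did not overlap for 4, all lower, beside 19.4% of all genes. Neuron markers summed to 6.34 to 8.79 FPKM with D-serine and 5.62 to 6.75 FPKM with vehicle, with Snap25 and Elavl4 listed at 0 in all libraries, and Cd3e of T cells was listed at 0 as well. Multiciliated cell markers summed to 4.42 to 7.22 FPKM with D-serine and 3.46 to 5.67 FPKM with vehicle. The part of these cell types in the tubulin differences was not tested.

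Profiles over the 6 libraries were compared by the root mean square distance of log2(FPKM + 1) values centred on their mean. Small RNA genes and genes with predicted, clone-based or pseudogene symbols were left out. Of the other tested genes outside the set, Rhbg (distance 0.064), Chrnb1 (0.072) and Dut (0.075) were closest to the mean profile of the members. Rhbg encodes an ammonia transporter of the distal nephron, and stood at 119, 97.8 and 76.1 FPKM with D-serine, against 57.97, 70.8 and 62.7 FPKM with vehicle. Chrnb1 encodes an acetylcholine receptor subunit and averaged 3.001 ± 0.769 FPKM with D-serine and 1.72 ± 0.0314 FPKM with vehicle. Dut, whose enzyme keeps uracil out of DNA, averaged 12.7 ± 4.23 FPKM with D-serine and 7.85 ± 0.769 FPKM with vehicle. By the same measure Tubb6 (0.10) was the member closest to the mean profile and Tubb5 (0.36) the furthest.

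Promoter sequence from RefSeq (GRCm38.p6) was matched for 7 of the 10 members, Tubb2b, Tubb6 and Tubg1 aside. The 150 bases before the RefSeq start are shown for Tubb4b, the most abundant beta gene, and Tubb5, the one with the largest difference, with CCAAT in capitals, the box bound by NF-Y; both are on the minus strand and read in the gene's direction.
Tubb4b, chr2:25224703-25224852: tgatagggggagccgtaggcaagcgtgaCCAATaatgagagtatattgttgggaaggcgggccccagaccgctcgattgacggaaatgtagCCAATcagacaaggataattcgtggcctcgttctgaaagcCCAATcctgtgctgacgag
Tubb5, chr17:35838302-35838451: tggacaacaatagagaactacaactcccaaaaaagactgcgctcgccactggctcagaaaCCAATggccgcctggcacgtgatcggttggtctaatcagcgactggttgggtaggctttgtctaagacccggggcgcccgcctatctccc

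RefSeq starts differ from the GENCODE gene ends given above for some members. The window of 250 bases lies wholly inside the GENCODE gene for Tuba4a and mostly inside it for Tuba1a and Tuba1b. Within 250 bases before the RefSeq start, CCAAT on either strand (CCAAT or ATTGG) occurred in 4 of the 7 members and in 33.9% of all 32851 promoters of that length. Tubb4b held 5 copies and Tubb5 2, Tuba1a and Tuba1c 1 each, and none was found in Tuba1b, Tuba4a or Tubb2a. TTTGAA on either strand (TTTGAA or TTCAAA), a form of the cell cycle homology region of late cell cycle genes, occurred in 1 member, Tubb4b, and in 16.0% of all promoters, and TTCGAA, which reads the same on both strands, in 0 and 1.34%. These matches describe the letters in the window and show no binding.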

How the data were processed

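Per the labels' protocols, RNA of 6 kidney samples went into TruSeq stranded mRNA libraries. The submitters' processing notes name TopHat2 2.0.13, Bowtie2 2.2.3, SAMtools 0.1.19 and Cufflinks 2.2.1 with build mm10. The deposited values are FPKM, 1 table for each sample. The sources used here give no annotation, read length or strand setting. Spacing of low values of genes with 1 annotated transcript gave a rough total of 7820000 to 9330000 fragments per library. No interval was computed from it. FPKM divides by the library total, so abundant genes press on all others.

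The 11737 genes whose mean reached 1 FPKM were tested on log2(FPKM + 1) with limma 3.58.1 in R 4.3.3 (lmFit, eBayes with trend, two-sided, Benjamini-Hochberg over all genes, threshold 0.05). The pseudocount understates differences of low genes. On simulated data for this comparison with 200 of 11737 genes changed, 59.5% were recovered at 2-fold (4 false calls), 91% at 4-fold (7) and 0% at 1.5-fold. In the real data, Mki67 and Top2a, at 6.96 and 5.03 times the vehicle mean, did not pass (limma adjusted p = 0.067 and 0.096). The simulated rates therefore do not hold for genes whose D-serine libraries spread as widely as theirs. Shares used exact permutation tests. Alternatives were another pseudocount, filter, scaling, trend or weighting, a replicate block, no small RNA genes, and each library left out. Removing a length and GC trend and summing copies were added after seeing the data. Coding sequences were aligned with Biopython 1.88; the coding ends of the alpha genes are not reported here.

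All 10 members are named. Other genes are the 3 smallest p of each microtubule list, any other tubulin of 1 FPKM or more, Mki67 and Top2a, and the 3 nearest profiles. Tuba8, Tubb3, Tuba3b, Tubal3, Stk16, Fam166a, Pfdn4, Gm49450, Gm41396, Havcr1, Cdh6, Sox9, Vcam1, Krt19, Spp1, Clu, Krt8, Col1a1, Col3a1, Aurkb, Tpx2 and markers listed at 0 were named after their values were seen. The members and lists were chosen with earlier results of these data known.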

Additional observations from a re-analysis of the deposited data

How the results depend on the processing

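All 10 tubulin genes kept a positive difference in every alternative that could be fitted, and 0 to 2 of them passed when 1 library was left out, against 0 as reported. Leaving out 1 library moved the members' median between 0.30 and 0.59, and the length and GC trend gave 0.30. The number of all genes called, 9 as reported, was 171 and 221 with a pseudocount of 0.1 and 0.01, 132 with a minimum of 5 FPKM, where Tubb6 drops out, 269 with weighted libraries, 332 without small RNA genes, and 2 to 437 with 1 library left out. The lowest adjusted p of a member was 0.055 with weighted libraries and 0.059 without small RNA genes. With the replicate block 2 genes passed and no member. The labels do not say that replicate numbers pair samples, so the numbers were not taken as pairs. Deviations of samples with the same number correlated little over genes (-0.070, 0.0031 and 0.067). Only for D-serine replicate 3 was the vehicle sample of the same number the best match. Scaling moved the median of all genes by under 0.1. The causes were not tested. Tubb6 and Tuba1a, with roughly 38 to 111 fragments per library, carry the most counting error.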
